A study of Homo sapiens with 12 samples.

Results

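HOX genes are the 4 clusters of homeobox genes (HOXA to HOXD, on chromosomes 7, 17, 12 and 2) whose members carry a cluster letter and a paralogue number. They were taken here as every gene whose symbol in the array annotation is HOX, a letter A to D and a number. The annotation used here named 29 such genes, and 28 had a probe set of their own and were measured, out of 19775 genes in all. They were 1 HOXA gene (HOXA2), 10 HOXB genes (HOXB1 to HOXB9 and HOXB13), 9 HOXC genes (HOXC4, HOXC5, HOXC6 and HOXC8 to HOXC13) and 8 HOXD genes (HOXD1, HOXD4 and HOXD8 to HOXD13). HOXD3 appeared only on 3 probe sets shared with other genes, whose values lay between 3.62 and 4.42 on all 12 arrays, and it was not tested. HOXA genes other than HOXA2 were not analysed here.

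HOX proteins are transcription factors that give cells a positional identity along the body axis in the embryo. Genes at one end of a cluster are used towards the head and genes at the other end towards the tail, and adult epithelia keep part of such a pattern. HOX proteins bind DNA with TALE cofactors (the PBX, MEIS and PKNOX families). Polycomb complexes hold silent HOX clusters repressed, Trithorax and MLL complexes keep active ones on, and retinoic acid is a classical inducer of HOX genes.

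All 4 lines come from SKBR-3 cells, an established human breast tumour line in which the HER2 gene (ERBB2) is amplified. SKR6 is a SKBR-3 population with raised HER2. SKR6-Vector is SKR6 after transduction with the empty retrovirus pQCXIP and puromycin selection. SKR6CA is SKR6 that received constitutively active NF-kB p65 (RELA) by retrovirus, also with puromycin selection. SKR6LR is SKR6 grown for several months in lapatinib, a drug that blocks the kinases HER2 and EGFR, raised from 0.2 to 5 µM to derive resistant cells. The growth protocol adds that "SKLR" cells were kept in 0.2 µM lapatinib. The labels name no promoter for the transgene and do not say whether a line is 1 clone or a pool. Each line had 3 biological replicates on 1 array each, with RNA taken after 48 hours of culture. Whether replicates were separate derivations is not given, so p-values measure the spread between these cultures.

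The levels are log2 values of the deposited table, so a difference of 1 is a doubling, and they carry no detection call. The 82 olfactory receptor genes on the array served as a low-signal yardstick. Whether any of them is expressed in these cells was not tested. The 95th percentile of their line means was 5.90 and their median 4.65, against a median of 6.81 over all genes. Probe sets differ in affinity, so a level is compared between lines and not between genes. Luminal markers were high in every line, with 13 of 14 above 5.90, and EPCAM (epithelial cell adhesion molecule) at 13.47 ± 0.02 in SKR6 and 13.58 ± 0.13 in SKR6LR (mean ± SD, n = 3). CDH1 (E-cadherin) was in the low range, at 4.28 ± 0.14 in SKR6 and 4.24 ± 0.10 in SKR6LR. SKR6LR differed from SKR6 over much of the array, and its arrays varied more among themselves, by a median of 0.142 over all genes against 0.0686 to 0.0875 in the other lines. The actin control probe sets, which read RNA integrity, gave a 3′ signal above the 5′ signal by 2.32 in SKR6LR replicate 3 and by 1.03 to 1.73 elsewhere.

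Promoter sequences are shown for HOXC genes that fell in SKR6LR and for a HOXD gene that was called in no comparison. In RefSeq (GRCh38.p14) the gene records of HOXC4, HOXC5 and HOXC6 begin at 1 shared position. HOXC6 fell far more than its neighbours in SKR6LR, as given below. No promoter window was given for HOXC6, HOXC9 or HOXC10, and which start HOXC6 uses in these cells was not tested. HOXD10 stayed in the low-signal range in all 4 lines. The lines below give the 250 bases before each start, 5′ to 3′, with every CpG (the dinucleotide that can be methylated) in capitals. The first window lies at chr12:54016638-54016887, plus strand, and the second at chr2:176116528-176116777, plus strand.
HOXC4 and HOXC5: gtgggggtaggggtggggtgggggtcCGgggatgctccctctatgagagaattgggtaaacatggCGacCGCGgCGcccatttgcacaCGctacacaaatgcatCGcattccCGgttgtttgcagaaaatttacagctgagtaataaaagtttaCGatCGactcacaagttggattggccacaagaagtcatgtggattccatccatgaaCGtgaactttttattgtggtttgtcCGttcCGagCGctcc
HOXD10: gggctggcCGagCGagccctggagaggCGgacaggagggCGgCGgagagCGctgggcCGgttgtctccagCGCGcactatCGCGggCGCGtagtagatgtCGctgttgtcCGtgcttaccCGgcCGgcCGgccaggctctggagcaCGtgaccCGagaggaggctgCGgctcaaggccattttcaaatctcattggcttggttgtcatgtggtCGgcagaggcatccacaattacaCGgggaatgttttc
The first holds 14 CpG and the second 23. The RefSeq promoter table covered 11 of the members in 10 distinct windows of 300 bases, which run 50 bases past the start. CpG counts in those windows ran from 4 (HOXD4) to 36 (HOXD1), with a median of 21 against 14 over all 35116 windows. The NF-kB consensus was found on either strand in 2 of the 10 windows, those of HOXA2 and of HOXC4 and HOXC5, and in 11.27% of all windows. The retinoid half-site AGGTCA was in 0 of 10 and in 13.83% of all windows, TATAAA in 1 (HOXD13) and in 11.53%, and the HOX-PBX motif TGATTNAT in 2 (HOXA2 and HOXD11) and in 2.82%. These are letter matches and not shown to be used sites.

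The number of HOX genes with a line mean above the olfactory receptor yardstick was counted in each line and cluster. In SKR6, 12 of the 28 genes had a mean above 5.90 (42.86%, against 60.64% of all genes), in SKR6-Vector and SKR6CA 11 each, and in SKR6LR 7. Of the 9 HOXC genes, 7 were above it in SKR6, SKR6-Vector and SKR6CA and 4 in SKR6LR. Of the 10 HOXB genes the counts were 4, 3, 3 and 2 in that order of lines. Of the 8 HOXD genes only HOXD9 was above it, in every line, and HOXA2 in no line.

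Of the 28 genes, 12 were above the yardstick in at least 1 line. Genes above the yardstick in all 4 lines were HOXB1, HOXB5, HOXC4, HOXC5, HOXC11, HOXC13 and HOXD9. HOXB3, HOXC6, HOXC9 and HOXC10 were above it in every line but SKR6LR, and HOXB4 in SKR6 alone. The other 16 members, HOXC8 and HOXC12 among them, were below it in all lines.

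**Figure D1:**
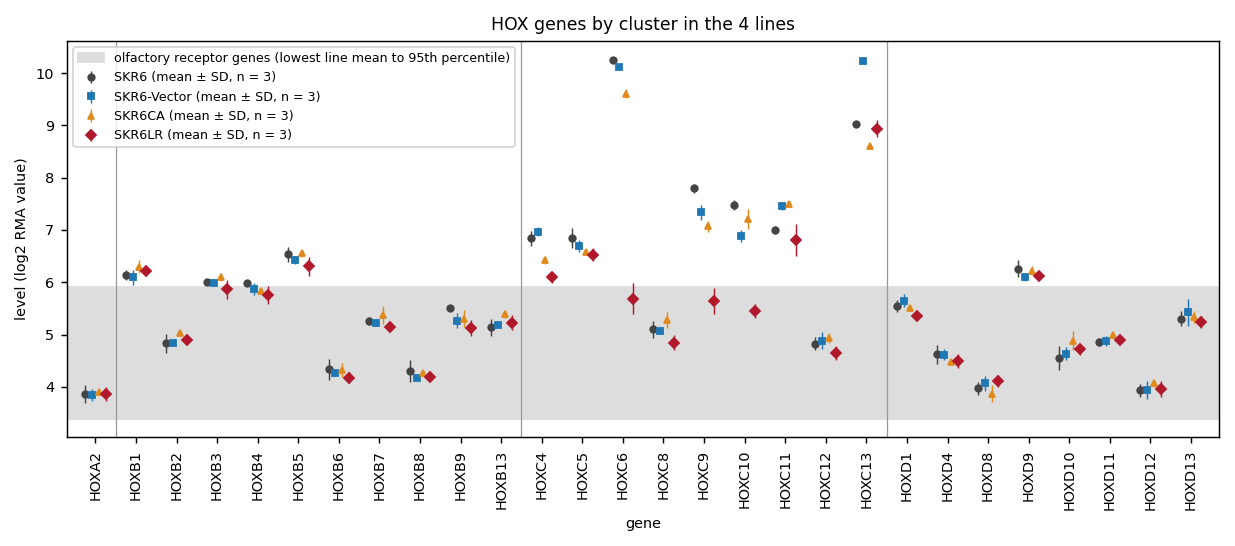
Level of each of the 28 HOX genes (log2 RMA value) in the 4 lines, grouped by cluster A to D; points are means of 3 arrays and bars are SDs. The grey band runs from the lowest line mean of 82 olfactory receptor genes to their 95th percentile of 5.90. All points of the HOXA, HOXB and HOXD genes lie in or just above the band, and HOXC6, HOXC9 and HOXC10 drop into it in SKR6LR.

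HOXC6, HOXC9 and HOXC10 fell in SKR6LR. HOXC6 is a gene of the middle of its cluster that breast epithelium is known to express. It was at 10.27, 10.23 and 10.26 in SKR6, at 10.13, 10.14 and 10.07 in SKR6-Vector, at 9.70, 9.55 and 9.55 in SKR6CA and at 5.92, 5.35 and 5.79 in SKR6LR. The SKR6LR arrays lay far below all 9 others, at the upper edge of the low-signal range. The difference between SKR6LR and SKR6 was -4.56 (SE 0.114, limma adjusted p = 4.20e-12), a 23.6-fold lower value. In bulk RNA, fewer cells with a transcript and less of it per cell cannot be told apart.

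HOXC9, the next gene but one, was at 7.70, 7.82 and 7.86 in SKR6, 7.20, 7.34 and 7.48 in SKR6-Vector, 7.18, 7.07 and 6.96 in SKR6CA and 5.81, 5.35 and 5.77 in SKR6LR. The SKR6LR values were again the lowest, without overlap, and the difference from SKR6 was -2.15 (SE 0.117, adjusted p = 6.47e-09), or 4.44-fold. HOXC10, its neighbour, was at 7.40, 7.59 and 7.45 in SKR6, 6.76, 6.97 and 6.91 in SKR6-Vector, 7.09, 7.09 and 7.43 in SKR6CA and 5.47, 5.58 and 5.30 in SKR6LR. It showed the same gap, with a difference of -2.03 (SE 0.105, adjusted p = 4.07e-09), or 4.08-fold. For all 3 genes the mean SKR6LR level was inside the low-signal range, where array values compress differences.

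HOXC13, at the other end of the cluster and known for its role in hair and nail keratin genes, showed another pattern. It was at 9.05, 9.0 and 9.01 in SKR6, 10.26, 10.18 and 10.22 in SKR6-Vector, 8.65, 8.58 and 8.60 in SKR6CA and 8.76, 8.97 and 9.08 in SKR6LR. SKR6-Vector stood above the other lines, SKR6CA was lowest, and the SKR6LR and SKR6 arrays overlapped. The difference between SKR6LR and SKR6 was -0.085 (95% interval -0.25 to 0.077, adjusted p = 0.375).

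**Figure D2:**
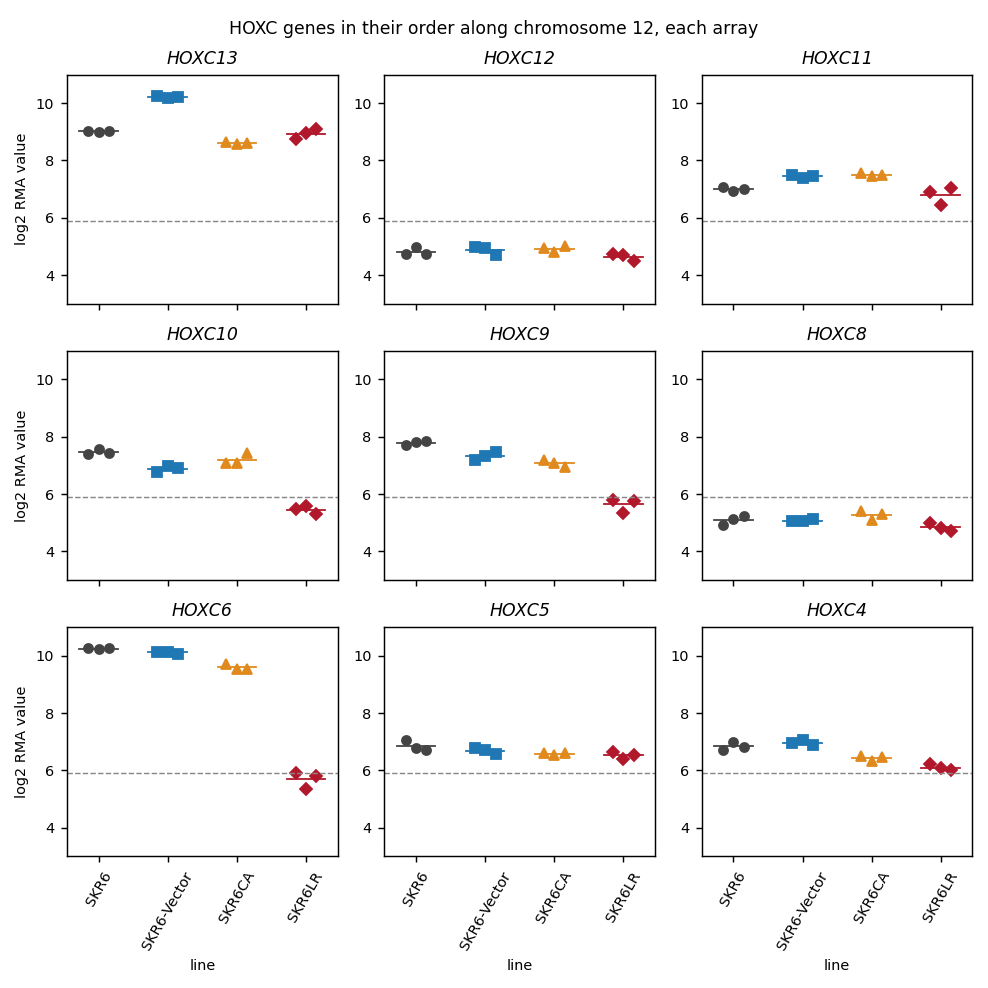
Level of each HOXC gene (log2 RMA value) on each of the 12 arrays, 1 panel a gene in chromosomal order from HOXC13 to HOXC4; points are arrays, short lines are means of 3, and the dashed line is the olfactory receptor 95th percentile of 5.90. SKR6LR is far lower than the other lines for HOXC10, HOXC9 and HOXC6, while HOXC13 is highest in SKR6-Vector and HOXC12 and HOXC8 stay under the line throughout.

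The remaining HOXC genes moved less, and they are named here after their values were seen. HOXC4 was at 6.84 ± 0.14 in SKR6 and 6.10 ± 0.10 in SKR6LR and fell by 0.74 (SE 0.0832, adjusted p = 6.08e-06). HOXC5 was at 6.85 ± 0.20 and 6.53 ± 0.12 and fell by 0.32 (adjusted p = 0.0158), a call lost without SKR6 replicate 1 (-0.21, adjusted p = 0.0748) and without SKR6LR replicate 2 (-0.25, adjusted p = 0.0605). The differences of HOXC11 (-0.20, adjusted p = 0.181), HOXC8 (-0.25, adjusted p = 0.0512) and HOXC12 (-0.18, adjusted p = 0.155) did not pass the test. HOXC11 was at 6.89, 6.46 and 7.05 in SKR6LR, and the range over these arrays is wider than in any other line. The order along the chromosome is HOXC13, HOXC12, HOXC11, HOXC10, HOXC9, HOXC8, HOXC6, HOXC5 and HOXC4. The fall was uneven among the HOXC genes above the yardstick in SKR6. Calls were made for HOXC10, HOXC9, HOXC6, HOXC5 and HOXC4 and not for HOXC13 and HOXC11. HOXC12 and HOXC8 lay under the yardstick in SKR6 already, where differences are compressed. Falls from under it were still called for HOXB9 and HOTAIR, as given below. The 5 calls of 9 genes are 55.56%, against 52.3% of all genes called in either direction. All 5 were falls, and 31.0% of all genes were called lower. A fall of at least 1 was called for 3 of the 9 genes (33.33%), against 8.01% of all genes.

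Outside HOXC the differences between SKR6LR and SKR6 were small. The 19 genes differed by -0.38 to 0.16, with all 95% intervals inside -0.60 to 0.42. Among them only HOXB1, HOXB3, HOXB4, HOXB5 and HOXD9 were above the yardstick in any line, and differences below it are compressed. HOXB9 fell by 0.38 (adjusted p = 0.00575), and its second probe set had -0.50 (adjusted p = 0.00152). HOXB4 fell by 0.23 (adjusted p = 0.0402) and HOXD1 by 0.20 (adjusted p = 0.0489). HOXB4 lost the call without SKR6LR replicate 2 (-0.13, adjusted p = 0.148), and HOXD1 without SKR6 replicate 2 (-0.13, adjusted p = 0.201), and both without several other single arrays. HOXB9 and HOXD1 lay in the low-signal range in every line, and HOXB4 in every line but SKR6.

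In all, limma called 0 of 28 HOX genes higher and 8 lower in SKR6LR against SKR6, and at an unadjusted p under 0.05 the counts were 0 and 10. That is 28.57%, against 52.3% of all genes called, 21.4% higher and 31.0% lower, so the count of calls is not above the background. Without SKR6LR replicate 2 the count was 5. Of the 28 genes 3 fell by at least 1, against 8.01% of all genes. The median difference of the HOX genes was -0.15, against -0.058 over all genes. Of the 82 olfactory receptor genes, 11 were called (13.41%), which shows how often values in the low range pass the test in this comparison.

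Markers of other cell types were also read in the same comparison, where 52.3% of all genes were called. The shares called were 88.89% of basal or myoepithelial, 21.43% of fibroblast or mesenchymal and 16.67% of blood cell markers. They were 50% of endothelial markers, 71.43% of luminal markers and 100% of HER2 amplicon genes. Of 9 basal or myoepithelial markers 7 rose and 1 fell, and their mean over an array was 5.68 to 5.75 in SKR6 and 9.78 to 10.07 in SKR6LR. Of 14 fibroblast or mesenchymal markers 3 rose and 0 fell (limma, 3 each way at an unadjusted p under 0.05), with array means of 5.26 to 5.34 and 5.71 to 5.81. The collagen genes COL3A1 and COL5A1 rose by 4.92 and 2.41 and FAP by 0.31, while DCN, LUM, PDGFRA and TWIST1 stayed in the low range. Of 6 blood cell markers 1 rose, CD14 by 1.72, and PTPRC, the pan-leukocyte marker, was at 4.22 ± 0.12 in SKR6LR. Of 6 endothelial markers 2 rose, CDH5 by 3.83 and VWF by 0.62, and TEK fell by 0.22. Array means of the blood cell list were 5.00 to 5.06 in SKR6 and 5.31 to 5.42 in SKR6LR, and of the endothelial list 5.35 to 5.40 and 6.01 to 6.09. Of 14 luminal markers 5 rose and 5 fell, with array means of 11.31 in SKR6 and 10.84 to 10.97 in SKR6LR. All 5 genes of the HER2 amplicon fell, with array means of at least 11.99 in SKR6 and of 10.83 to 11.12 in SKR6LR. The part of these markers in the HOX differences was not tested.

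SKR6CA against SKR6-Vector sets active p65 beside the empty vector, with transduction and selection in both lines. Each construct is present in 1 line, so an effect of p65 and a shift of either line cannot be told apart. Here 1 HOX gene rose and 3 fell of 28 (14.29%, against 26.6% of all genes, 11.7% higher and 14.9% lower), and all 4 were HOXC genes. HOXC13 fell by 1.61 (SE 0.0746, adjusted p = 1.72e-08), 3.06-fold, from a SKR6-Vector level that was itself above SKR6. HOXC4 fell by 0.54 (adjusted p = 0.000399) and HOXC6 by 0.51 (adjusted p = 0.00492). HOXC10 had a difference of 0.32 (adjusted p = 0.0379), lost without SKR6CA replicate 3 (0.21, adjusted p = 0.159) and also without SKR6-Vector replicate 1 (0.26, adjusted p = 0.146) or 3 (0.34, adjusted p = 0.0762) or SKR6 replicate 3 (0.32, adjusted p = 0.0526). HOXC9 did not pass (-0.27, adjusted p = 0.119). The 19 genes outside HOXC differed by -0.20 to 0.25 and limma called 0 of them (3 had an unadjusted p under 0.05, all higher). Of 9 basal or myoepithelial markers 5 fell and 0 rose here, with differences of -2.71 for OXTR, -2.35 for MYLK, -2.34 for KRT15, -1.38 for ACTA2 and -0.87 for TAGLN. Of 14 fibroblast or mesenchymal markers COL5A1 alone was called, at -2.30, of 14 luminal markers 1 rose and 5 fell, and of 6 endothelial markers 1 rose. Their part in the HOX differences was not tested.

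SKR6-Vector against SKR6 shows what transduction with the empty vector and puromycin selection were accompanied by. Of the 28 genes 2 rose and 2 fell (14.29%, against 25.7% of all genes, 12.2% higher and 13.4% lower), again all in HOXC. Outside HOXC 0 of 19 were called by limma, and 1 had an unadjusted p under 0.05. HOXC13 rose by 1.20 (SE 0.0746, adjusted p = 1.98e-07), 2.30-fold. HOXC11 was at 7.0 ± 0.08 in SKR6 and 7.45 ± 0.06 in SKR6-Vector, a rise of 0.45 (adjusted p = 0.0136), and HOXC10 fell by 0.60 (adjusted p = 0.00108). HOXC9 fell by 0.46 (adjusted p = 0.0121). Without SKR6-Vector replicate 1, HOXC11 (0.42, adjusted p = 0.0504) and HOXC9 (-0.39, adjusted p = 0.0577) missed the threshold and 2 calls remained in number; HOXC11 also missed it without SKR6 replicate 2 (0.41, adjusted p = 0.0557). Of the 9 basal or myoepithelial markers 5 rose here and 0 fell (limma), with array means of 5.68 to 5.75 in SKR6, 6.77 to 6.80 in SKR6-Vector and 5.71 to 5.75 in SKR6CA, and their part in the HOX differences was not tested.

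Against the untransduced SKR6, SKR6CA had 1 HOX gene higher and 4 lower (17.86%, against 24.3% of all genes, 9.97% higher and 14.4% lower). HOXC13 was lower by a difference of -0.41 (adjusted p = 0.00158), HOXC6 of -0.65 (adjusted p = 0.00127), HOXC9 of -0.73 (adjusted p = 0.000669) and HOXC4 of -0.41 (adjusted p = 0.00323). HOXC11 was higher by 0.50 (adjusted p = 0.0081). The comparisons share control arrays, so their values are set side by side without a test of likeness. HOXC13 thus read 9.02 ± 0.02 in SKR6, 10.22 ± 0.04 with the empty vector and 8.61 ± 0.03 with active p65.

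**Figure D3:**
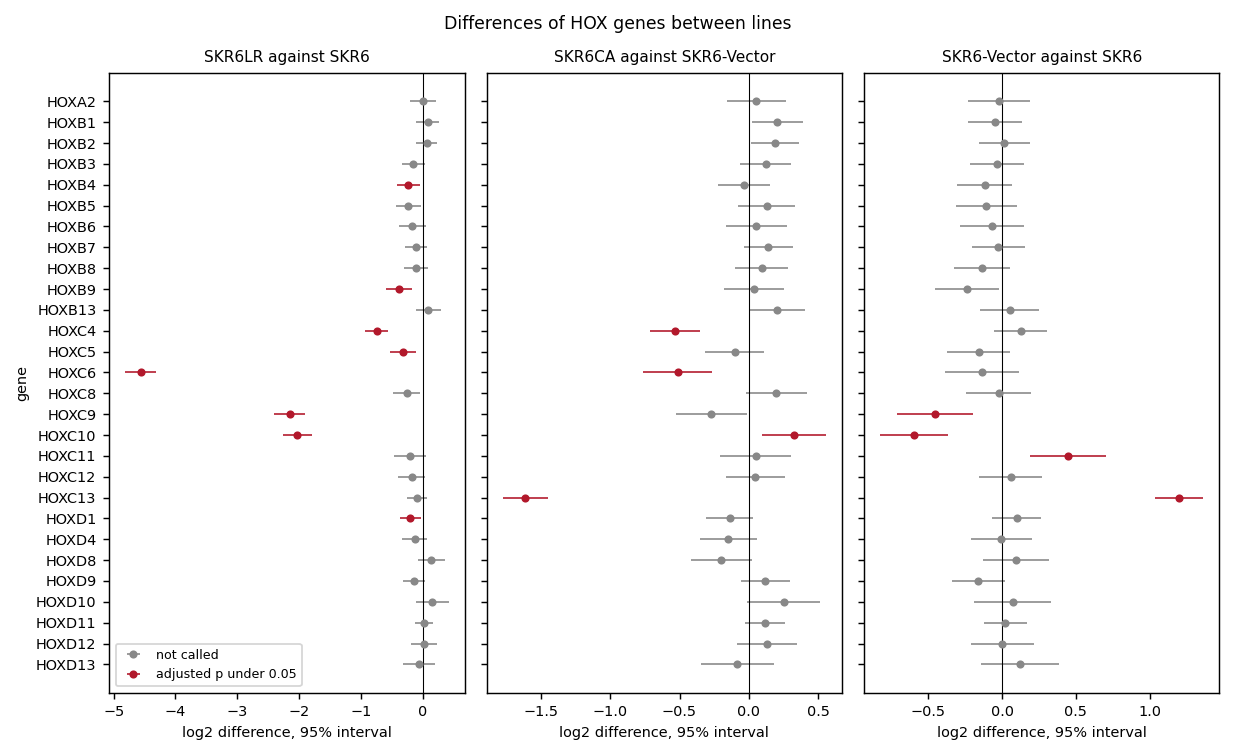
Log2 difference of each of the 28 HOX genes with its 95% interval in 3 comparisons (panels have their own scales); red points passed an adjusted p of 0.05 in limma. Calls in the middle and right panels are all HOXC genes, and the left panel is dominated by HOXC6 at -4.56, HOXC9 at -2.15 and HOXC10 at -2.03. Most genes outside HOXC lay in the low-signal range, where differences are compressed.

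The effect in SKR6LR (against SKR6) and the effect in SKR6CA (against SKR6-Vector) were tested against each other. Of the 28 genes 7 differed (1 higher and 6 lower in the SKR6LR effect, against 45.4% of all genes called, 19.8% higher and 25.6% lower). HOXC6 differed by -4.05 (SE 0.162, adjusted p = 6.58e-10), HOXC10 by -2.35 (SE 0.149, adjusted p = 4.75e-08) and HOXC9 by -1.88 (SE 0.166, adjusted p = 1.03e-06). HOXC13 differed the other way, by 1.53 (SE 0.105, adjusted p = 1.09e-07). HOXC8 (-0.45, adjusted p = 0.0203), HOXB9 (-0.42, adjusted p = 0.0272) and HOXB5 (-0.36, adjusted p = 0.0484) passed narrowly. Without SKR6CA replicate 1 all 3 missed it, at -0.38 (adjusted p = 0.0548), -0.35 (adjusted p = 0.0713) and -0.32 (adjusted p = 0.108), and the count was 4; each also missed it without other single arrays. It was also 4 without SKR6 replicate 3.

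Distances between lines were taken as the median absolute difference between line means, and 16 of the 28 genes entered them from the low-signal range, where differences compress. Over the 28 HOX genes the median from SKR6 was 0.097 for SKR6-Vector, 0.154 for SKR6CA and 0.154 for SKR6LR. Over the 9 HOXC genes the median from SKR6 was 0.159 for SKR6-Vector, 0.409 for SKR6CA and 0.319 for SKR6LR. Over all genes these were 0.121, 0.121 and 0.235. The HOXC median was 0.271 for SKR6-Vector and SKR6CA, 0.870 for SKR6-Vector and SKR6LR and 0.430 for SKR6CA and SKR6LR. Over all genes these were 0.120, 0.220 and 0.217. Over the 19 genes outside HOXC the medians between lines were 0.070 to 0.142. Between single arrays of the same line, the medians over these 19 genes were 0.107 to 0.154. Over the 9 HOXC genes they were 0.121 in SKR6, 0.085 in SKR6-Vector, 0.113 in SKR6CA and 0.200 in SKR6LR. Single arrays vary more than means of 3. Of the 28 genes, 3 were at least 1 unit apart between SKR6LR and SKR6 (10.71%, against 15.59% of all genes). There were 3 such genes between SKR6LR and SKR6CA (10.71%, against 13.9%) and 4 between SKR6LR and SKR6-Vector (14.29%, against 14.99%). All of them were HOXC genes, and the shares were not above those of all genes. With SKR6-Vector as the control, the SKR6LR differences were -4.43 for HOXC6, -1.70 for HOXC9, -1.43 for HOXC10 and -0.87 for HOXC4. HOXB9 (-0.14, adjusted p = 0.273) and HOXC5 (-0.16, adjusted p = 0.210) were not called against that control.

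HOTAIR is a long non-coding RNA made within the HOXC cluster between HOXC12 and HOXC11, known for guiding Polycomb complexes. Its gene overlaps HOXC11, and whether its probe set could share signal with that gene was not analysed here. HOTAIR was at 5.10, 5.16 and 4.89 in SKR6, 6.63, 6.74 and 6.62 in SKR6-Vector, 5.38, 5.28 and 5.50 in SKR6CA and 3.45, 3.77 and 3.85 in SKR6LR. SKR6-Vector alone was above the low-signal yardstick, and SKR6LR was below all others. HOTAIR rose in SKR6-Vector against SKR6 by 1.61 (SE 0.105, adjusted p = 3.11e-07) and was lower in SKR6CA than in SKR6-Vector by a difference of -1.28 (adjusted p = 2.41e-06). Its SKR6LR difference from SKR6, within the low-signal range, was -1.36 (adjusted p = 1.98e-07). HOXC13 and HOTAIR were both highest with the empty vector. Of the 13 RNAs of the HOX clusters measured, 2 fell and 0 rose in SKR6LR (limma, 3 and 0 at an unadjusted p under 0.05). That is 15.38%, against 52.3% of all genes. The 2 were HOTAIR and HOXA-AS2, the latter lower by 0.28 (adjusted p = 0.00203). With SKR6-Vector as the control HOXA-AS2 was not called (-0.14, adjusted p = 0.0867), and the HOTAIR difference was -2.97.

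Among TALE cofactors, MEIS2, which binds DNA beside HOX proteins, fell in SKR6LR. It was at 10.88, 10.86 and 10.83 in SKR6, 11.49, 11.49 and 11.58 in SKR6-Vector, 11.11, 10.97 and 11.01 in SKR6CA and 8.21, 7.90 and 8.05 in SKR6LR. No line overlapped another, and the difference between SKR6LR and SKR6 was -2.80 (SE 0.0762, adjusted p = 8.68e-12). MEIS1 was at 6.29 ± 0.06 in SKR6, 6.55 ± 0.06 in SKR6-Vector, 5.72 ± 0.14 in SKR6CA and 5.45 ± 0.16 in SKR6LR. It fell by 0.84 both in SKR6LR against SKR6 (adjusted p = 3.97e-06) and in SKR6CA against SKR6-Vector (adjusted p = 2.14e-05). PKNOX1 rose in SKR6LR by 0.70 (adjusted p = 1.66e-05) and TGIF1, a TALE repressor, by 0.68 (adjusted p = 7.40e-07). Of the 10 TALE genes 3 rose and 4 fell in SKR6LR (70.0%, against 52.3% of all genes), and 0 rose and 4 fell in SKR6CA against SKR6-Vector (40.0%, against 26.6% of all genes; limma, 1 and 4 at an unadjusted p under 0.05), with PBX3 at -0.62 (adjusted p = 0.000458). With a gene's probe sets averaged, the differences were 0.43 for PKNOX1 and 0.33 for TGIF1 in SKR6LR (0.34 for TGIF1 with SKR6-Vector as the control) and -0.43 for MEIS1 in SKR6CA.

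Regulators of HOX chromatin moved in both directions. Of 26 Polycomb genes 5 rose and 11 fell in SKR6LR (61.54%, against 52.3% of all genes). CBX2, a reader of the Polycomb histone mark, was at 11.51, 11.49 and 11.50 in SKR6 and 9.19, 8.86 and 9.22 in SKR6LR, a fall of 2.41 (adjusted p = 8.72e-11), and the difference was -1.35 with its probe sets averaged. PHF19, a PRC2 accessory protein, fell by 0.94 in SKR6LR (adjusted p = 3.43e-06; the difference was -1.82 with SKR6-Vector as the control) and by 1.54 in SKR6CA against SKR6-Vector (adjusted p = 2.84e-07), where 4 of the 26 rose and 9 fell (50%, against 26.6% of all genes). Of 18 Trithorax and MLL genes 4 rose and 10 fell in SKR6LR (77.78%, against 52.3% of all genes), and 3 rose and 3 fell in SKR6CA against SKR6-Vector (33.33%, against 26.6%). MLLT3, an acetyl-lysine reader of the elongation machinery, fell by 1.70 in SKR6LR (adjusted p = 5.43e-08), and KDM6A, a demethylase of the Polycomb mark, rose by 1.69 (adjusted p = 6.11e-10). In SKR6CA MLLT3 fell by 1.01 (adjusted p = 3.55e-05). On probe sets that are not of the _x_at or _s_at kinds, which can match several transcripts, MLLT3 differed by -0.40 in SKR6LR (adjusted p = 0.00382) and by -0.26 in SKR6CA (adjusted p = 0.0826).

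Retinoic acid genes also moved in both directions. Of 17 measured, 6 rose and 7 fell in SKR6LR (76.47%, against 52.3% of all genes). CYP26A1, which degrades retinoic acid and is itself a retinoid target, was at 4.34, 4.57 and 4.50 in SKR6 and 10.12, 9.28 and 9.84 in SKR6LR, a rise of 5.27 (SE 0.170, adjusted p = 4.38e-11). TGM2, a transglutaminase induced by retinoids, was at 5.46, 5.39 and 5.66 in SKR6 and 9.09, 11.44 and 10.78 in SKR6LR, a rise of 4.93 (adjusted p = 4.09e-07). RDH10, which makes retinal, rose by 1.54 (adjusted p = 1.18e-10) and ALDH1A2, which makes retinoic acid, by 1.49 (adjusted p = 0.000569). These genes had the largest called differences, and all of them rose. Among the 7 that fell, where the lowest difference was -1.36, were ALDH1A1 at -0.99 and CRABP2 at -1.08. With SKR6-Vector as the control ALDH1A1 was at -3.65, and CRABP2 was not called (-0.0079, adjusted p = 0.975). With probe sets averaged, the rises were 2.57 for TGM2, 0.86 for RDH10 and 0.66 for ALDH1A2, and RDH10 rose by 0.79 with SKR6-Vector as the control. In SKR6CA against SKR6-Vector 2 rose and 5 fell (41.18%, against 26.6%), with ALDH1A1 at -3.28 (adjusted p = 6.56e-10) and the retinoic acid carrier CRABP2 at 0.99 (adjusted p = 0.000491). For both, the SKR6-Vector level was itself shifted from SKR6. The differences of the 17 genes in SKR6-Vector against SKR6 ran from -1.07 (CRABP2) to 2.66 (ALDH1A1). In SKR6CA against SKR6 the lowest difference of the 17 was -0.62, for ALDH1A1.

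Homeobox genes outside the HOX clusters, which pattern limbs, brain and other organs, were also measured. Of these 35, 4 rose and 8 fell in SKR6LR (34.29%, against 52.3% of all genes). IRX3 was at 12.96, 12.95 and 12.95 in SKR6 and 6.47, 6.85 and 6.50 in SKR6LR, a fall of 6.35 (SE 0.0876, adjusted p = 2.50e-14). Its neighbour IRX5 fell by 4.83 (adjusted p = 2.68e-10) and DLX1 by 4.27 (adjusted p = 2.50e-11), while MSX2 rose by 1.53 (adjusted p = 5.68e-10). With probe sets averaged DLX1 fell by 2.49, and on probe sets not of the _x_at or _s_at kinds MSX2 rose by 0.23 (adjusted p = 0.0326). In SKR6CA against SKR6-Vector 4 rose and 4 fell (22.86%, against 26.6%), with DLX1 at -1.46 (adjusted p = 4.66e-06).

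**Figure D4:**
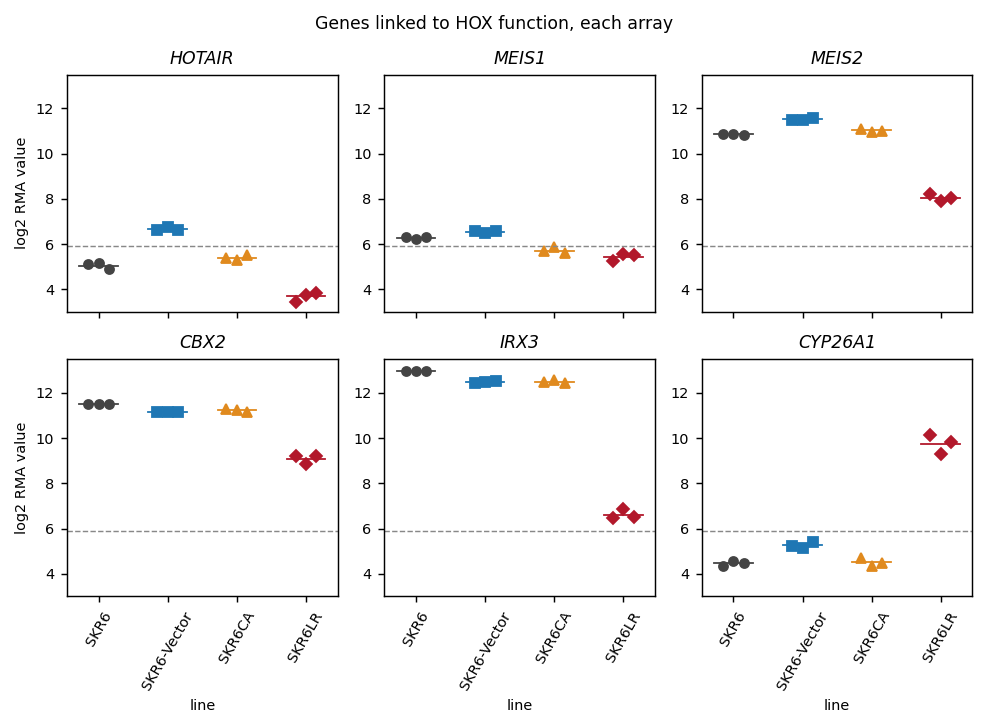
Level (log2 RMA value) of HOTAIR, the cofactors MEIS1 and MEIS2, the Polycomb gene CBX2, the homeobox gene IRX3 and the retinoid gene CYP26A1 on each of the 12 arrays; points are arrays, short lines are means of 3, and the dashed line is 5.90. SKR6LR is lowest for the first 5 genes and highest for CYP26A1, and HOTAIR is highest in SKR6-Vector.

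Genes that lie beside the clusters on the chromosome were also measured. Of 26, 2 rose and 10 fell in SKR6LR (46.15%, against 52.3% of all genes). LNPK and ATF2, both beside HOXD, fell by 1.59 (adjusted p = 3.91e-06) and 1.18 (adjusted p = 4.54e-06, or by 0.59 with probe sets averaged). SKAP2, beside HOXA, fell by 1.15 (adjusted p = 6.67e-09) and ATP5MC1, beside HOXB, by 1.12 (adjusted p = 1.28e-07, or by 0.64 with SKR6-Vector as the control). Of the 7 genes beside HOXC, 0 rose and 3 fell in SKR6LR (limma, 0 and 4 at an unadjusted p under 0.05), with differences from -0.80 (ATP5MC2) to 0.19 (NFE2).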

How the data were processed

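The deposited values are log2 values from robust multi-array averaging (RMA), which the submitters' processing notes name together with limma. How limma was used, and with which versions and parameters RMA ran, is not given in these sources. RMA values are relative to the other arrays, and small differences near background are compressed. The number of arrays limits the precision. Probe sets were named from the platform annotation, with symbols updated by gene ID through RefSeq (GRCh38.p14) for 41043 of 41097 single-gene probe sets. Of 54675 probe sets 1801 matched several genes and 11777 were unnamed. For each gene the single-gene probe set whose mean over the 12 arrays was highest was used. limma 3.58.1 in R 4.3.3 (lmFit, eBayes) was fitted with a mean for each line on all arrays, 19775 genes and no filter, after a test on simulated data. Benjamini-Hochberg adjustment covered every gene tested, and calls are adjusted p-values under 0.05.

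The members and gene lists were chosen with earlier results of these data known. By rule, array values are given for members called with a difference of at least 1, and other lists are represented by up to 4 called genes for SKR6LR and up to 2 for SKR6CA. Genes named outside this rule (the other HOX genes, the markers, ATP5MC2 and NFE2, and array values of MEIS2, CBX2, CYP26A1, TGM2 and IRX3) were chosen after their values were seen. So were the SKR6LR differences of ALDH1A1 and CRABP2. Alternatives are in the closing section.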

Additional observations from a re-analysis of the deposited data

How the results depend on the processing

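HOXC6, HOXC9, HOXC10 and HOXC4 in SKR6LR against SKR6, HOXC13 in both comparisons with SKR6-Vector, and HOTAIR in SKR6LR, in SKR6CA against SKR6-Vector and in SKR6-Vector kept their calls under every alternative that gave them a value; HOXC6 and HOXC13 have none without _s_at probe sets. Counts of HOX calls moved more. In SKR6LR against SKR6 the 8 calls became 5 with cyclic loess, with 1 weight per line, with only the arrays compared and at an adjusted p under 0.01, and 2 of 4 genes tested with a filter on low values. In SKR6CA against SKR6-Vector the 4 calls became 7 with only the arrays compared, 2 of 4 tested with the filter and 2 of 24 without _x_at or _s_at probe sets. In SKR6-Vector against SKR6 the 4 became 2 at an adjusted p under 0.01. In SKR6CA against SKR6 the 5 became 8 with array weights and with 1 weight per line. The 7 differences between effects became 3 with the filter and 4 without _x_at or _s_at probe sets and at an adjusted p under 0.01. Leaving out 1 array gave 5 to 9, 3 to 5, 2 to 4, 5 to 7 and 4 to 8 calls in these comparisons. The filter tests fewer genes by construction; the other causes were not tested. With the median of all genes as the yardstick, 7, 6, 5 and 1 HOX genes were above it in SKR6, SKR6-Vector, SKR6CA and SKR6LR. Without _x_at or _s_at probe sets, HOXD1 in SKR6LR (0.11), KDM6A in SKR6CA against SKR6-Vector (-0.16) and SATB1 there (0.024) changed sign; the cause was not tested. Of all calls, 40.82% were higher in SKR6LR against SKR6, and 52.3% with cyclic loess; for SKR6CA against SKR6-Vector 43.9% became 56.18% with median centring. Replicate numbers did not pair the arrays: correlations of deviations ran from -0.034 to 0.095 over 18 pairs. With the replicate block the HOX calls were 7, 4, 4, 6 and 6 in the order above. Depth here is signal over background: differences under the yardstick of 5.90 are compressed.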
